A study of Mus musculus with 30 samples.

Results

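The nuclear genes for the subunits of the oxidative phosphorylation machinery were followed in retinal ganglion cells, which send the eye's output to the brain, sorted from mice. Members were chosen by symbol from a table of counts per gene: complex I subunits (Nduf genes), complex II (Sdh genes), complex III (Uqcr genes and Cyc1), complex IV (Cox4 to Cox8 genes) and ATP synthase, or complex V (Atp5 genes). Pseudogene symbols and the assembly or accessory factors Cox7a2l, Atp5s and Atp5sl were left out. The rule gave 82 of the 24033 genes: 35 of complex I, 4 of complex II, 9 of complex III, 19 of complex IV and 15 of complex V. Ndufa4 and Ndufa4l2, named for complex I, are counted with complex IV, where the Ndufa4 protein is known to sit. No gene encoded in mitochondrial DNA was in the table used here, so the subunits made inside the organelle were not analysed. The filter on low counts kept 79 members, and left out Cox7b2 (111 counts over all libraries), Cox8b (18 counts) and Cox8c (1 count).

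The respiratory chain moves electrons from NADH and succinate to oxygen through complexes I to IV and pumps protons across the inner mitochondrial membrane, and ATP synthase uses the return of those protons to make ATP. Most subunits are encoded in the nucleus, and several of complex IV come in a widely expressed form and a form known from particular tissues such as heart and skeletal muscle, lung or testis. Retinal ganglion cells have long axons with an unmyelinated stretch inside the eye that is rich in mitochondria, and inherited defects of complex I cause an optic neuropathy in humans.

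RNA was measured in 30 libraries, 3 in each of 10 groups. The mice of all groups were LSL-Cas9-GFP; Vglut2-Cre, so that Cre under the Vglut2 promoter turns on Cas9 and GFP, and all received AAV2 in the vitreous carrying sgRNAs: non-targeting ones (NT) or ones against Ssrp1 (SSRP1KO), which encodes a subunit of the histone chaperone FACT. Each sgRNA group was collected without optic nerve crush (no crush) and 1, 2, 3 and 4 days post crush (dpc). Neither age nor a further strain background is stated in the labels. Live cells were sorted on CD90.2, GFP or mCherry, or on a combination of them, so a library can hold cells of other kinds. Whether a group's libraries are separate animals is not stated, so the p-values reflect only how these libraries vary, and that variation may be technical.

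Totals ran from 9715972 to 34420978 counts per library. The ganglion cell list, 12 markers such as Rbpms, Slc17a6 and Thy1, was detected in every library, with a summed level, in counts scaled to library size (CPM), of 10124 to 11487 for uncrushed NT and 4971 to 5359 for SSRP1KO at 4dpc. Ssrp1 itself was lower in SSRP1KO by -0.89 ± 0.10 (log2, SE) averaged over the 5 times (adjusted p = 2.11e-06), but the difference without crush was -0.28 ± 0.23 (adjusted p = 0.522). Unless stated otherwise, adjusted p-values come from edgeR's two-sided quasi-likelihood test, with Benjamini-Hochberg adjustment over the 16621 genes tested and a threshold of 0.05; "rose", "fell" and "changed" are kept for genes past it. Of the 30 libraries, 3 stood apart from the other libraries of their group: NT 2dpc replicate 3 and NT 4dpc replicate 1, the shallowest of all, and SSRP1KO 2dpc replicate 5. Results that rest on them are mostly given with and without them. To stand apart, a library had to correlate below 0.95 with its partners while these correlated above 0.98 with each other. The uncrushed SSRP1KO libraries, the reference of each SSRP1KO crush comparison, correlated at 0.926 to 0.959. The rule could therefore not single out a library in that group. In bulk samples, fewer cells of a type and less RNA per cell cannot be told apart.

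Start-site sequences are shown for 4 members on which the results turn: Cox6a1, the widely expressed partner of the most strongly rising gene, Cox7a1 and Cox7a2, a muscle and a widely expressed form that fell together, and Ndufc1, the complex I gene that fell first. Each runs 5′ to 3′ from 250 bases before to 50 bases after the start, from RefSeq on GRCm38.p6. Capitals mark matches, on either strand, to GCATGCG (the core of the NRF1 site), CCGGAAG (ETS factors such as GABPA) or AAGATGG (YY1), 3 factors long known at respiratory chain genes, or to TGANTCA (AP-1) or TGACGTC (CRE), elements of stress-activated factors.
Cox6a1, chr5:115348909-115349208, minus strand: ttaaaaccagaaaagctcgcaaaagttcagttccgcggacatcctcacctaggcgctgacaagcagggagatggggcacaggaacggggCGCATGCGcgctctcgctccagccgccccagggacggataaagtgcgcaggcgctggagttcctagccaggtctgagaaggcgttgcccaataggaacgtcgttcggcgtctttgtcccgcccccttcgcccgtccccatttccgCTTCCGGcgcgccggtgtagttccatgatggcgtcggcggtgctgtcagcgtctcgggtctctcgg
Cox7a1, chr7:30183921-30184220, plus strand: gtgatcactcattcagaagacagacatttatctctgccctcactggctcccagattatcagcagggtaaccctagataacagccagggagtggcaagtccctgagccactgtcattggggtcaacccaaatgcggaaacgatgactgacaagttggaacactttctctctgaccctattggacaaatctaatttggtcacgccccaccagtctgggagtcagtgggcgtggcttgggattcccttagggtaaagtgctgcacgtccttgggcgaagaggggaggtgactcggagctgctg
Cox7a2, chr9:79759804-79760103, minus strand: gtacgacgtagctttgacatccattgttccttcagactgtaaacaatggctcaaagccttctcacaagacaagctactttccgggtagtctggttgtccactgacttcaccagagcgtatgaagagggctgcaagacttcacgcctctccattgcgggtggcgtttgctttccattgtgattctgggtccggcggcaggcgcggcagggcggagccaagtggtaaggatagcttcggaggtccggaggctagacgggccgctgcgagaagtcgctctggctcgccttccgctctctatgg
Ndufc1, chr3:51408906-51409205, minus strand: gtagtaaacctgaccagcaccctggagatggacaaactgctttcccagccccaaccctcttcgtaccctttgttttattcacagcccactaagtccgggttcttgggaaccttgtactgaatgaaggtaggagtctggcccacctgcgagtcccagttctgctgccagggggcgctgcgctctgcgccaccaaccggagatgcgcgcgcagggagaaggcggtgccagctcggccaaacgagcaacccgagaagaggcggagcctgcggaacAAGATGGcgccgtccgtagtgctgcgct
The Cox6a1 window held NRF1 matches on both strands that overlap each other in 1 run, at -161 and -160 from the start, and an ETS match on the reverse strand at -16. The Ndufc1 window held a YY1 match at 22 bases past the start. The Cox7a1 and Cox7a2 windows, neither with a match, belong to genes that both fell after crush. Windows were found for 66 of the 82 members. The NRF1 letters were in 11 of these (16.7%), against 4.01% of the 27025 genes with a window. ETS letters were in 16 members (24.2%, against 9.93% of all genes) and YY1 letters in 11 (16.7%, against 7.28%). AP-1 letters were in 7 members (10.6%, against 8.97%) and CRE letters in 6 (9.09%, against 3.6%). A match is only the presence of these letters, and its absence says nothing about a factor.

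Without injury, the NT cells carried the subunits as an abundant and uneven set. Together the members took 0.841% ± 0.0323 (SD, n = 3) of all gene counts in the uncrushed NT libraries. Per kilobase of 1 annotated coding transcript of each gene, levels were highest for Atp5b, the catalytic beta subunit of ATP synthase, at 1028 CPM per kb, and the lowest gene of that complex was Atp5g2, a c-ring gene, at 1.58 CPM per kb. In complex IV, Cox6a1 was highest at 393 CPM per kb, and the testis form Cox8c was at 0. In complex III, Uqcrh, the hinge protein, reached 305 and the core protein gene Uqcrc1 39.0 CPM per kb. In complex II, the flavoprotein Sdha reached 136 and the membrane anchor Sdhc 23.3 CPM per kb. In complex I, Ndufb9 reached 200.2 and Ndufs5 1.19 CPM per kb. Some of these ranks depend on the length used: per kb of all annotated exons of a gene, Ndufc2 was highest in complex I (164 CPM per kb) and Uqcr10 in complex III (168 CPM per kb), Sdhb was lowest in complex II (19.3 CPM per kb), and Atp5b was at 465 CPM per kb, still the highest. The low values of Ndufs5 and Atp5g2 are uncertain, since 34.6% and 100% of the 69-base stretches of their transcripts are shared with other loci, mainly BC002163 and Gm10175, and how such reads were assigned is not stated. BC002163 was itself counted at 11.2 to 35.5 CPM over the 30 libraries, against at most 0.845 CPM for Ndufs5. In all, 38 members share at least 1 such stretch with another gene, and for 4 it is over 50% of the transcript (Atp5g2, Atp5l at 78.8%, Atp5g1 at 61.2% and Cox7c at 51.1%).

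**Figure D1:**
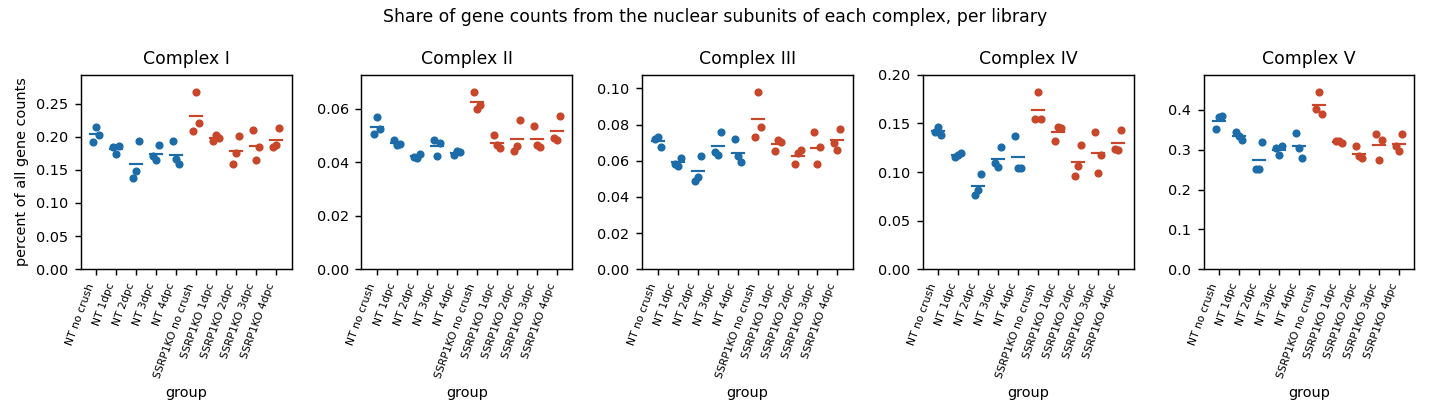
Share of all gene counts (percent, y axis) taken by the nuclear subunits of each complex in every library, by group along the x axis; points are libraries and bars are group means. In NT cells the complex IV share went from a mean of 0.142% without crush to 0.0853% at 2dpc and 0.115% at 4dpc.

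After crush in NT cells, the subunits took a lower share of the counts on each day, and the lowest mean share at 2dpc. The whole set took 0.739% ± 0.0105 of the counts at 1dpc, 0.615% ± 0.0862 at 2dpc, 0.702% ± 0.0412 at 3dpc and 0.704% ± 0.0731 at 4dpc (SD, n = 3 each). None of the 12 crushed NT libraries reached the uncrushed range of 0.807% to 0.871%. The share of ATP synthase went from 0.372% to 0.274% at 2dpc, that of complex I from 0.203% to 0.159%, that of complex III from 0.071% to 0.0541% and that of complex II from 0.0534% to 0.0423%. The plot of count shares by complex shows the lowest point at 2dpc and a partial return afterwards for each of the 5 complexes.

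At 1dpc only 2 of the 79 tested members had changed in NT (2.53%, against 1.86% of all genes tested), 1 up and 1 down. The direction was nevertheless shared: 74 of 79 estimates were below 0, with a median of -0.27 against 0.0 for all genes. At 2dpc, 39 members fell and 1 rose, 50.6% of those tested against a background of 18.8%. The median was -0.55, against 0.05 for all genes. At 3dpc, 23 fell and 3 rose (32.9%, against 24.2%), with a median of -0.33. At 4dpc, 24 fell and 3 rose (34.2%, against 27.2%), with a median of -0.25. In each of these calls at 2 to 4dpc the crushed and uncrushed libraries did not overlap. This adds little to the calls: at 1dpc it also held for many members not called, among them Cox7b and Ndufb9. No share over all genes is given for it. Falls alone took 49.4% of the members at 2dpc against 9.35% of all genes, 29.1% against 12.2% at 3dpc, and 30.4% against 13.2% at 4dpc.

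The libraries that stand apart bear on these counts. Member medians of single libraries against uncrushed NT were -0.75, -0.66 and -0.45 at 2dpc, the last in replicate 3, and -0.04, -0.42 and -0.46 at 4dpc, the first in replicate 1. Without the 3 libraries, 61 members were called at 2dpc and 43 at 4dpc in NT. With a score for the mix of sexes in the model, 16 were called at 4dpc. Leaving out NT 3dpc replicate 1 took the 3dpc count from 26 to 14, and leaving out NT 3dpc replicate 2 or NT no crush replicate 2 took it to 15. No share of all genes is given for these settings, so a higher or lower count is not a stronger or weaker response of the subunits. The ganglion cell markers moved over the same days: 7 of 12 fell at 2dpc, 7 at 3dpc and 8 at 4dpc, where 2 rose. Their summed level was 6808 to 7453, 7828 to 8275 and 6859 to 10921 CPM on those days, against 10124 to 11487 CPM uncrushed, and none was at 0 in any library. Of 10 microglia and macrophage markers, 1 rose at 2dpc, 1 at 3dpc and 2 at 4dpc. Their sum was 50.1 to 83.0 CPM uncrushed, 74.9 to 218 at 2dpc, 138 to 143 at 3dpc and 202 to 289.8 CPM at 4dpc. Of 8 Mueller glia and astrocyte markers, 2 rose on each of these days, Clu (by 1.27, 1.52 and 2.51 on the log2 scale) and Rlbp1 (by 2.07, 2.79 and 2.40), and 1 fell at 3dpc and at 4dpc. Their sum was 763 to 824 CPM uncrushed, 707 to 784 at 2dpc, 616 to 766 at 3dpc and 931 to 1307 CPM at 4dpc. Of 7 amacrine markers, Slc6a9 rose on each day (1.43, 1.42 and 1.04), with sums of 169 to 406 CPM uncrushed and 289 to 562 CPM over the 3 days. The part of these markers in the result was not tested.

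**Figure D2:**
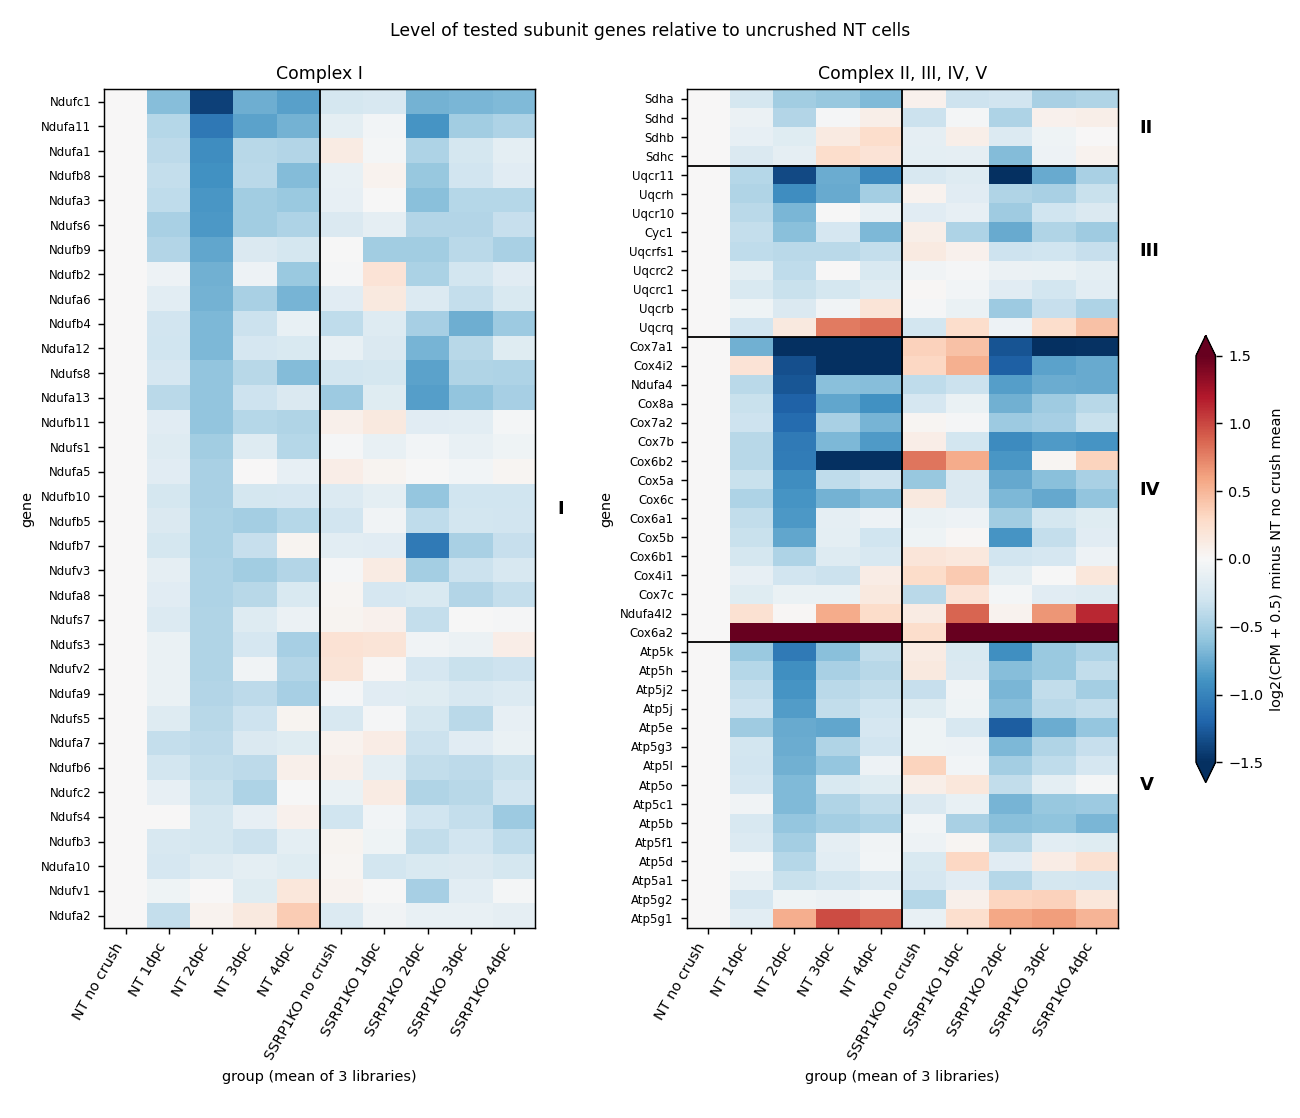
Mean log2(CPM + 0.5) of each of the 10 groups (columns, 3 libraries each) minus that of uncrushed NT for the tested members (rows, by complex, sorted within each by NT 2dpc, 1 member not shown); the colour scale stops at 1.5 either way. At NT 2dpc, 73 of the 79 changes against uncrushed NT are below 0, and Cox6a2 and Ndufa4l2, the latter at no more than 1.03 CPM in any library, are the rows higher in all 8 crushed columns.

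The fall was uneven across complexes and across their parts. At NT 2dpc complex IV had the lowest median, -0.9, with 9 of 16 tested members down and 1 up, and ATP synthase followed at -0.67 with 9 of 15 down. Complex I had a median of -0.47 with 16 of 35 down, complex III -0.38 with 4 of 9 down, and complex II -0.31 with 1 of 4 down. Within complex IV, 8 of the 11 widely expressed subunits fell, with a median of -0.87. Within ATP synthase, all 4 genes of the peripheral stalk, which holds the catalytic head still against rotation, fell (median -0.75). Of the 5 genes of F1, the head with the rotating central stalk inside it, 2 fell. By 4dpc none of the 4 peripheral stalk genes was called, and 1 F1 gene was. NT 4dpc replicate 1, which stands apart, was at 157, 104 and 65.0 CPM for Atp5f1, Atp5o and Atp5h. Replicates 2 and 3 were below every uncrushed NT library, at 95.9 and 98.2, 68.3 and 62.4, and 45.4 and 42.3 CPM. Atp5j was below its uncrushed range in all replicates. Calls of these genes at 4dpc without replicate 1 are not given. In complex I, 3 of the 7 core genes, those with bacterial counterparts that carry the redox centres, fell at 2dpc and 4 at 4dpc. Of the 28 accessory genes 13 fell at 2dpc and 7 at 4dpc. Across the 79 members, the log2 change at 2dpc was related to transcript length with a Spearman rho of 0.35: the 27 shortest (371 to 618 bases) had a median of -0.85, and the 27 longest (983 to 3171 bases) one of -0.46. The same rho was 0.49 at 1dpc, 0.25 at 3dpc and 0.02 at 4dpc. Length moved with the change within these libraries, and its part was not tested.

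**Figure D3:**
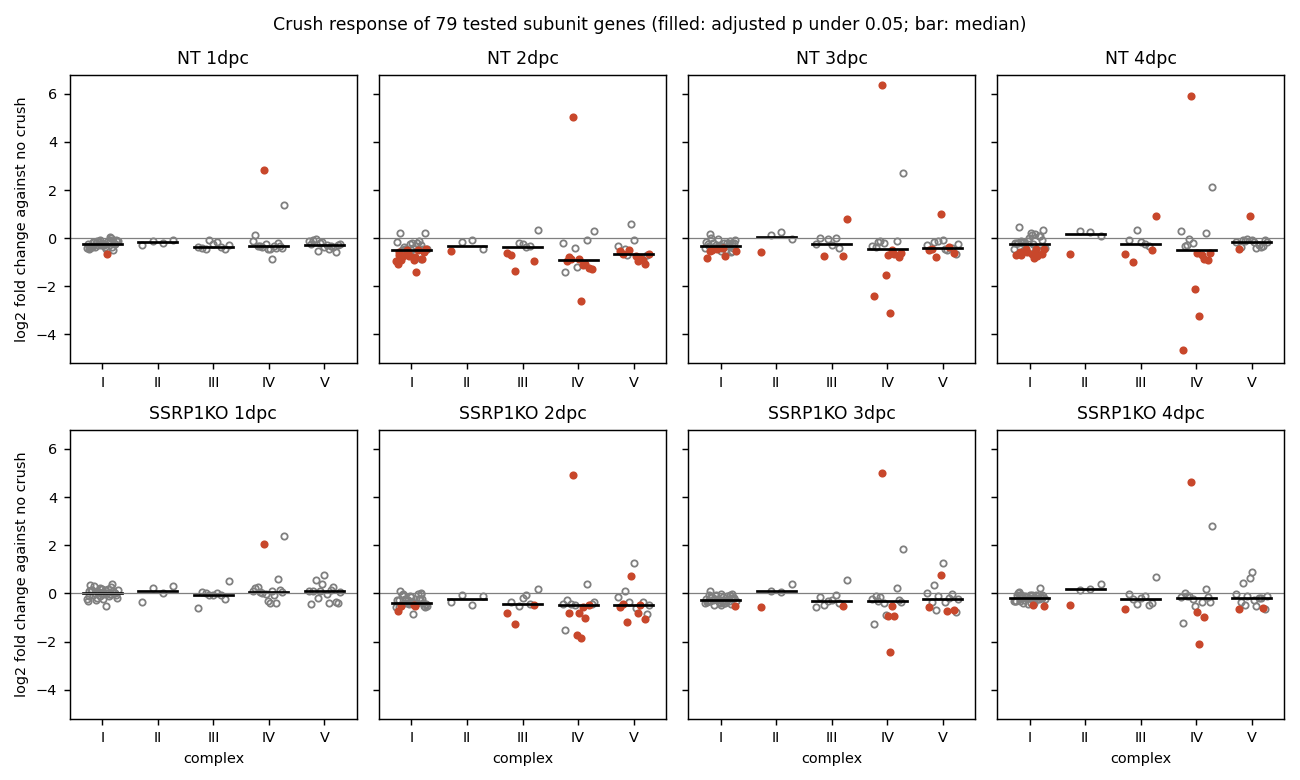
Log2 change against no crush (y axis) of each tested member by complex and day, for NT and SSRP1KO cells; filled points passed the threshold of 0.05 and bars are medians. At 2dpc the NT medians run from -0.31 in complex II to -0.9 in complex IV.

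In all, 44 of the 79 tested members fell on at least 1 day in NT, 3 rose on at least 1 day and 32 were never called. Of the 44, 16 fell on each of 2, 3 and 4dpc: Ndufa3, Ndufa6, Ndufa11, Ndufb8, Ndufb11 and Ndufc1 of complex I, Sdha, Uqcrh and Uqcr11 of complexes II and III, Cox6c, Cox7a1, Cox7a2, Cox7b, Cox8a and Ndufa4 of complex IV, and Atp5b. Cox7a1, Cox7b, Cox8a, Ndufc1 and Sdha kept the call on all 3 days in each of the 13 alternatives, and the other 11 lost it on at least 1 day in some. Ndufa6 and Ndufb11 at 3dpc lost it in 8, with adjusted p of up to 0.125 and 0.182, and Ndufb8 at 3dpc in 7 (up to 0.132), in each case also without any 1 of several single libraries. Cox7a2 lost it in 4 at 3dpc (up to 0.0915, among them without NT 3dpc replicate 1 or 2 or NT no crush replicate 2) and with the sex score at 4dpc (0.069), as did Ndufa4 (0.0519). A further 15 fell at 2dpc alone, among them Cox5a, Cox5b and Cox6a1 of complex IV and Atp5f1, Atp5h and Atp5o of the peripheral stalk. At 4dpc these stalk genes were below the uncrushed libraries in NT replicates 2 and 3, but not in replicate 1. Cox4i2 and Cox6b2 were not called at 2dpc and fell at 4dpc.

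Ndufc1, a small accessory subunit of complex I on chr3:51404677-51408988 of GRCm38 (minus strand), was the one member that fell already at 1dpc. Its level was 52.7, 55.2 and 53.2 CPM in NT without crush and 36.3, 35.8 and 31.1 CPM at 1dpc. It was 21.9, 16.8 and 21.7 CPM at 2dpc, 34.3, 29.8 and 32.7 CPM at 3dpc and 31.2, 27.8 and 32.2 CPM at 4dpc. Every crushed library was below every uncrushed one, and the 2dpc libraries were lowest. The log2 changes were -0.64 ± 0.15 at 1dpc (adjusted p = 0.0187), -1.42 ± 0.15 at 2dpc (8.97e-08), -0.73 at 3dpc (0.000457) and -0.82 at 4dpc (0.000106). The 1dpc call did not survive leaving out any single NT 1dpc library (adjusted p = 0.057, 0.0532 and 0.124 without replicates 1, 2 and 3), nor NT no crush replicate 1 (0.0541) or 2 (0.0896). In SSRP1KO cells the same gene was 44.7, 44.7 and 44.0 CPM without crush and 25.9, 36.4 and 37.2 CPM at 2dpc, and no day was called (-0.42, -0.42 and -0.39 at 2, 3 and 4dpc). Whether its crush response differed between the sgRNA groups did not pass the joint test (adjusted p = 0.0886).

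Other complex I members showed smaller falls. Ndufb8, an accessory subunit often used as an indicator of assembled complex I, was 84.3, 85.3 and 93.4 CPM without crush and 50.2, 45.6 and 43.9 CPM at 2dpc (log2 change -0.91 ± 0.14, adjusted p = 2.68e-05). Ndufa11, an accessory membrane subunit, was 58.2, 58.9 and 66.1 CPM without crush and 29.2, 28.6 and 28.4 CPM at 2dpc (-1.09 ± 0.18, adjusted p = 6.69e-05). In both genes the groups did not overlap, and the fall at 4dpc was -0.65 and -0.70. Ndufa11 overlaps Vmac on the opposite strand by 70 exon bases, and 134 exon bases of Ndufb8 are shared with Gm20538. The core gene Ndufv1 was never called, and its values in the shallowest libraries, 199 CPM in NT 2dpc replicate 3 and 206 CPM in NT 4dpc replicate 1, lay far above their group partners at 59.6, 64.9, 79.1 and 66.8 CPM.

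In complex II a single gene was called. Sdha, which carries the succinate-oxidising flavin, was 372, 406 and 403 CPM in uncrushed NT and 282, 274 and 266 CPM at 2dpc. It was 284, 249.5 and 266 CPM at 3dpc and 234, 267 and 244 CPM at 4dpc. All 9 of these libraries were below the uncrushed range, and the changes were -0.52 ± 0.12 (adjusted p = 0.00207), -0.56 (0.000658) and -0.66 (7.76e-05). The iron-sulfur subunit Sdhb and the membrane anchors Sdhc and Sdhd were not called on any day in either sgRNA group.

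In complex III a small accessory gene fell and another rose. Uqcr11 was 32.0, 35 and 34.0 CPM in uncrushed NT, 11.1, 12.2 and 15.8 CPM at 2dpc and 15.9, 15.4 and 19.7 CPM at 4dpc. The groups did not overlap, and the changes were -1.38 ± 0.23 (adjusted p = 7.63e-05) and -0.98 (0.00168). In SSRP1KO cells it went from 23.0, 33.5 and 29.8 CPM to 13.2, 12.8 and 9.24 CPM at 2dpc (-1.29, adjusted p = 0.00036), a call lost with the sex score (-1.14, 0.0563) and with the 6 libraries of the 2 groups alone (-1.31, 0.0723). Uqcrq, known as a ubiquinone-binding subunit, was 67.2, 71.5 and 70 CPM in uncrushed NT, 55.1, 55.2 and 151 CPM at 2dpc, 116, 108 and 136 CPM at 3dpc and 198, 103 and 92.3 CPM at 4dpc. Its highest values were in the libraries that stand apart. The rise was 0.79 ± 0.28 at 3dpc (adjusted p = 0.0409) and 0.91 ± 0.28 at 4dpc (0.0157). The 3dpc call was lost in 8 of 13 alternatives, and without NT 4dpc replicate 1 the 4dpc change was 0.43 (adjusted p = 0.312). Cyc1, the cytochrome c1 that hands electrons to cytochrome c, fell by 0.63 at 2dpc (adjusted p = 0.0312) and by 0.65 at 4dpc (0.0172) on the log2 scale. These calls were lost in 5 and 4 of 13 alternatives, among them without NT no crush replicate 2, NT 2dpc replicate 1 or 3 and NT 4dpc replicate 1 or 3, at adjusted p of up to 0.207.

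Of the 11 widely expressed subunits of complex IV, 8 fell at 2dpc and 5 on each of 3dpc and 4dpc. Cox4i1, Cox6b1 and Cox7c were never called in the main test. Cox6b1 was 81.7, 92.5 and 88.8 CPM in uncrushed NT and 52.0, 48.6 and 101 CPM at 2dpc. Without NT 2dpc replicate 3 its change was -0.8 (adjusted p = 0.00285). Without the 3 libraries that stand apart it was -0.8 at 2dpc (0.000411) and -0.4 at 4dpc (0.0486). Cox7b, encoded on the X chromosome, was 231, 182 and 196 CPM in uncrushed NT, 94.0, 95.4 and 101 CPM at 2dpc, 113, 122 and 147 CPM at 3dpc and 121, 104 and 110.4 CPM at 4dpc. No crushed library from 2dpc on reached the uncrushed range. The changes were -1.07 ± 0.14 (adjusted p = 2.32e-06), -0.67 (0.000549) and -0.86 (2.2e-05), and they held in all 13 alternatives on each day. SSRP1KO cells went from 189.7, 232 and 229 CPM to 114, 117 and 86.1 CPM at 2dpc and 105, 99.3 and 126 CPM at 4dpc, with changes of -1.03, -0.95 and -0.98 at 2, 3 and 4dpc. The libraries differed in their mix of sexes, as judged by sex-linked genes. With the score for it in the model, the NT falls of Cox7b were -1.08, -0.69 and -0.92.

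Cox8a, the widely expressed form of the smallest complex IV subunit, was 130, 137 and 145 CPM in uncrushed NT and 64.7, 59.3 and 52.7 CPM at 2dpc. It was 72.4, 76.2 and 91.0 CPM at 3dpc and 62.3, 78.7 and 78.1 CPM at 4dpc. The groups did not overlap on these days, and the changes were -1.22 ± 0.13 (adjusted p = 1.1e-07), -0.78 (4.55e-05) and -0.91 (4.36e-06). Ndufa4 was 193, 219.6 and 208 CPM in uncrushed NT and 79.5, 86.9 and 88.3 CPM at 2dpc (-1.29 ± 0.17, adjusted p = 2.38e-06), with 165, 116 and 120.4 CPM at 4dpc (-0.63, 0.00505). Its relative Ndufa4l2, known as a hypoxia-induced gene, stayed at or below 1.03 CPM in every library and was not called. Cox6c, an accessory subunit, was 108, 108 and 103 CPM in uncrushed NT and 46.4, 60.1 and 68.4 CPM at 2dpc (-0.87 ± 0.19, adjusted p = 0.00176). It shares 250 exon bases with Vps13b on the opposite strand and 17.7% of its 69-base stretches, mainly with Cox6c2.

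Cox6a2 made the clearest exception to the fall. It encodes the form of subunit 6a known from heart and skeletal muscle and lies on chr7:128205435-128206387 of GRCm38 (minus strand). In uncrushed NT it was 1.0, 0.0 and 0.293 CPM. It was 2.13, 3.46 and 3.15 CPM at 1dpc, 11.6, 13.1 and 16.4 CPM at 2dpc, 28.9, 34.9 and 37.6 CPM at 3dpc and 31.1, 20.5 and 22.3 CPM at 4dpc. Every crushed library was above every uncrushed one, and each day's range up to 3dpc was above that of the day before. The log2 changes were 2.83 ± 0.55 at 1dpc (adjusted p = 0.00304, but 0.121 with the 6 libraries of the 2 groups alone), 5.05 ± 0.56 at 2dpc (1.12e-07), 6.36 ± 0.58 at 3dpc (1.35e-09) and 5.90 ± 0.57 at 4dpc (3.39e-09). The size of these folds depends on the few counts without crush.

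The SSRP1KO cells showed the same rise, from 0.128, 0.492 and 1.14 CPM without crush to 2.24, 1.52 and 3.31 CPM at 1dpc and 15.9, 18.0 and 16.8 CPM at 2dpc. They were at 20.3, 14.9 and 18.9 CPM at 3dpc and 13.7, 14.4 and 14 CPM at 4dpc. The changes were 2.07 ± 0.55 at 1dpc (adjusted p = 0.026, lost in 6 of 13 alternatives), 4.91 ± 0.55 at 2dpc (3.41e-07), 5.00 at 3dpc (1.65e-07) and 4.64 at 4dpc (6.43e-07). At 3dpc and 4dpc the SSRP1KO libraries all lay below the NT ones, by -0.90 ± 0.43 (adjusted p = 0.334) and -0.81 ± 0.43 (0.295), which did not pass the threshold. The joint test of a difference in crush response gave an adjusted p of 0.561. The gene overlaps Itgad, on the opposite strand, by 70 exon bases. Itgad was at 0 in the uncrushed NT libraries and at most 1.64 CPM in any library.

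Its partner Cox6a1, on chr5:115345642-115348981 (minus strand), was 222, 221 and 229 CPM in uncrushed NT and 109.8, 118 and 145 CPM at 2dpc, a change of -0.85 on the log2 scale (adjusted p = 0.000723). It was 184, 186 and 249 CPM at 3dpc and 283, 202 and 169 CPM at 4dpc, not called. As a percent of the counts of both genes, Cox6a2 went from 0.192% ± 0.231 uncrushed to 1.63% ± 0.32 at 1dpc, 9.9% ± 0.322 at 2dpc, 14.1% ± 1.43 at 3dpc and 10.3% ± 1.27 at 4dpc in NT (SD, n = 3). In SSRP1KO it was 0.294%, 1.11%, 9.79%, 8.78% and 6.64% at the same times. Cox6a1 stayed the more abundant gene in every library.

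**Figure D4:**
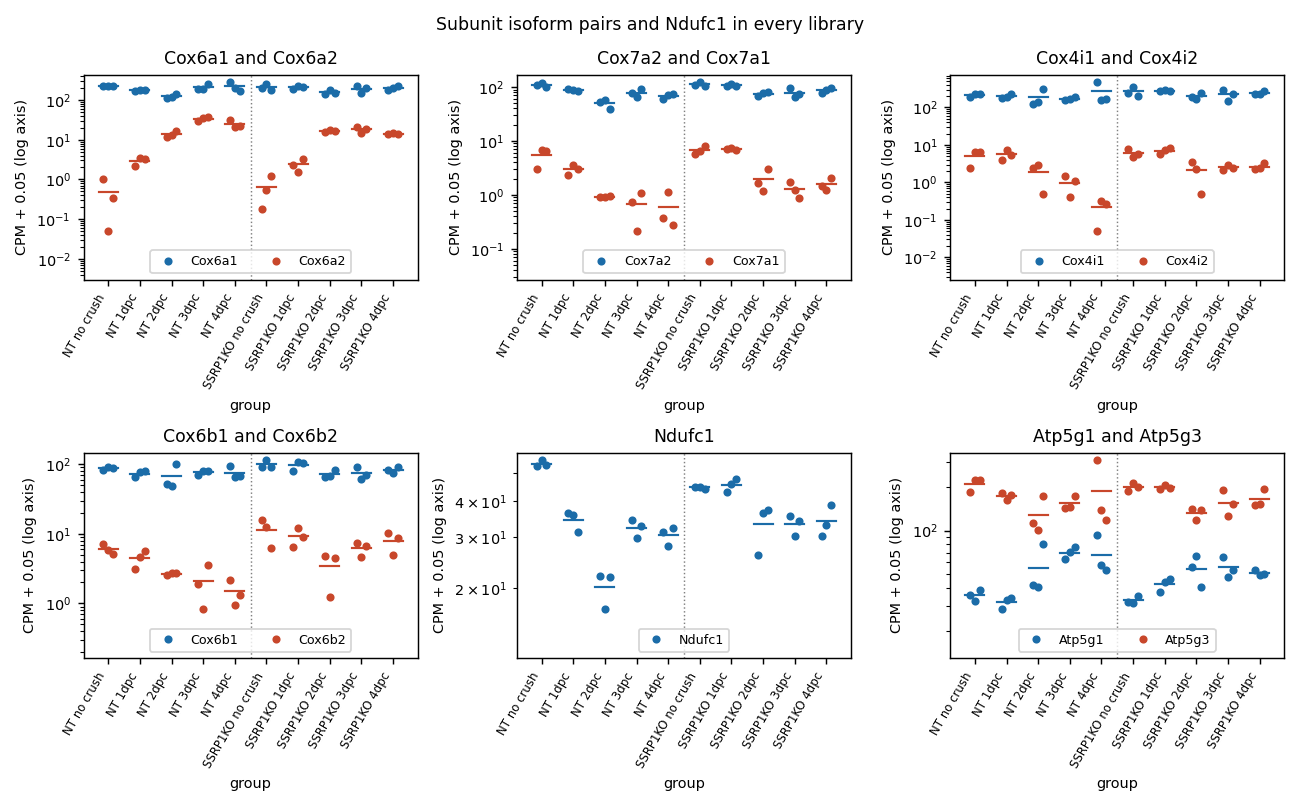
Levels in every library (CPM + 0.05, log axis) of complex IV isoform pairs, Ndufc1 and the c-ring genes Atp5g1 and Atp5g3 in the 10 groups; points are libraries and bars are group means. Cox6a2 climbs from at most 1.14 CPM without crush to between 11.6 and 37.6 CPM from 2dpc on, while Cox7a1 and Cox4i2 go down.

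The tissue-type isoforms Cox7a1, Cox4i2 and Cox6b2 fell in NT cells, while Ndufa4l2 was not called. Cox7a1, the heart and muscle form of subunit 7a on chr7:30184144-30186078 (plus strand), was 3.0, 6.76 and 6.42 CPM in uncrushed NT and 2.27, 3.54 and 2.98 CPM at 1dpc. It was 0.861, 0.86 and 0.887 CPM at 2dpc, 0.701, 0.162 and 1.01 CPM at 3dpc and 0.321, 1.08 and 0.222 CPM at 4dpc. No library from 2dpc on reached the uncrushed range, and the changes were -2.63 ± 0.56 (adjusted p = 0.00115), -3.10 ± 0.57 (0.000123) and -3.23 ± 0.58 (7.54e-05). In SSRP1KO cells it fell from 5.66, 6.34 and 8.15 CPM to 1.63, 1.12 and 2.91 CPM at 2dpc and 1.41, 1.18 and 2.03 CPM at 4dpc (-1.84 ± 0.53, adjusted p = 0.0219, and -2.12 ± 0.54, 0.00685). The SSRP1KO 2dpc call was lost in 6 of 13 alternatives, among them leaving out SSRP1KO 2dpc replicate 3 (adjusted p = 0.065) or 4 (0.0974) and SSRP1KO no crush replicate 3 (0.0618). Cox7a2, its widely expressed partner, fell less, from 109, 118 and 102 CPM to 52.8, 57.6 and 38.9 CPM at 2dpc (-1.13 ± 0.16, adjusted p = 4.36e-06).

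Cox4i2, known as the lung form of subunit 4 and on chr2:152754173-152765037 (plus strand), was 2.35, 6.52 and 6.27 CPM in uncrushed NT. It was 2.32, 2.78 and 0.444 CPM at 2dpc, 1.44, 0.364 and 1.01 CPM at 3dpc and 0.0, 0.278 and 0.222 CPM at 4dpc. The 4dpc libraries were the lowest of all, and the fall was -2.42 ± 0.62 at 3dpc (adjusted p = 0.00429) and -4.65 ± 0.74 at 4dpc (1.36e-05). Its size at 4dpc rests on a group near 0. The widely expressed Cox4i1 was not called on any day, with 125, 142 and 308 CPM at 2dpc and 478, 154 and 171 CPM at 4dpc against 189, 228 and 232 CPM uncrushed; the outlying values are those of the shallowest libraries. It overlaps Emc8 on the opposite strand by 154 exon bases. Without the 3 libraries that stand apart Cox4i1 was -0.70 at 2dpc (adjusted p = 0.0124).

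Cox6b2, known as a testis form of subunit 6b, on chr7:4751792-4753094 (minus strand), was 7.15, 5.75 and 5.06 CPM in uncrushed NT and 1.87, 0.768 and 3.5 CPM at 3dpc. It was 2.14, 0.902 and 1.29 CPM at 4dpc, and no library of either day reached the uncrushed range. The fall was -1.54 ± 0.49 at 3dpc (adjusted p = 0.019) and -2.11 ± 0.51 at 4dpc (0.00218). The 3dpc call was lost without NT 3dpc replicate 1 or 2 or NT no crush replicate 1, at adjusted p of up to 0.109. Of 10 tested mural cell markers, the pericyte and smooth muscle list, none was called in any NT crush comparison. Their summed level in NT was 6.64 to 14.2 CPM without crush, 6.55 to 9.54 at 2dpc, 10.5 to 15.8 at 3dpc and 11.1 to 19.4 CPM at 4dpc.

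In ATP synthase, 3 of the 5 F1 genes fell on some day: Atp5b of the catalytic head, and Atp5c1 and Atp5e of the central stalk. Atp5a1 of the head and Atp5d of the central stalk were never called. All 4 genes of the peripheral stalk, called the stalk below, fell at 2dpc, and the c-ring gene Atp5g1 rose. Atp5b was 1799, 1975 and 2137 CPM in uncrushed NT and 1169.9, 1109.6 and 1770.3 CPM at 2dpc. It was 1480.1, 1511 and 1303 CPM at 4dpc, below the uncrushed range in every library. The changes were -0.55 at 2dpc (adjusted p = 0.00781), -0.51 at 3dpc (0.0089) and -0.46 at 4dpc (0.0167). The 2dpc call was lost without NT 2dpc replicate 1 or 2, and the 4dpc call without NT 4dpc replicate 3 or NT no crush replicate 3, at adjusted p of up to 0.104 and 0.0777. Atp5k, the e subunit that helps ATP synthase pair up in the membrane, was 52.6, 58.0 and 53.4 CPM in uncrushed NT and 25.2, 23.6 and 29.5 CPM at 2dpc (-1.07 ± 0.20, adjusted p = 0.000306). Atp5h, the d subunit of the stalk, was 57.6, 74.5 and 69.3 CPM and then 31.0, 32.9 and 41.8 CPM at 2dpc (-0.93 ± 0.19, adjusted p = 0.000531), though 42.0% of its 69-base stretches are shared, mainly with Gm10250. Atp5j, the stalk's coupling factor 6, fell by 0.84 ± 0.11 (log2, adjusted p = 3.56e-06). It shares 397 exon bases with Gabpa on the opposite strand, which was 48.2, 51.3 and 41.7 CPM uncrushed and 86, 80.4 and 79.5 CPM at 2dpc, the other way, and without a stated strand setting reads in the overlap cannot be told apart.

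Atp5g1 and Atp5g3 both encode the same mature c subunit of the proton-driven ring behind different targeting peptides. Atp5g1 was 35.2, 32.4 and 38.5 CPM in uncrushed NT, 41.8, 40.5 and 80.8 CPM at 2dpc, 63.6, 70.7 and 76.3 CPM at 3dpc and 93.1, 57.8 and 52.8 CPM at 4dpc. From 2dpc on all libraries were above the uncrushed range. The change was 0.61 at 2dpc (adjusted p = 0.0533), 0.99 ± 0.22 at 3dpc (0.00121) and 0.94 ± 0.22 at 4dpc (0.00185), the last 0.59 without NT 4dpc replicate 1 (0.0592). SSRP1KO cells rose by 0.73 at 2dpc (adjusted p = 0.0282, lost in 6 of 13 alternatives) and by 0.76 at 3dpc (0.0182, lost in 4). Atp5g3 was 185, 224 and 226 CPM in uncrushed NT and 112, 101 and 174 CPM at 2dpc (-0.72 ± 0.23, adjusted p = 0.0291, lost in 5 of 13 alternatives). Of the counts of both genes, Atp5g1 took 14.4% ± 1.7 in uncrushed NT, 29.1% ± 2.3 at 2dpc, 31.2% ± 1.1 at 3dpc and 27.7% ± 4.01 at 4dpc (SD, n = 3). In SSRP1KO it took 14% without crush and 28.9%, 26.2% and 23.5% on the same days. The sequence that Atp5g1 shares is mainly that of Gm10039, which limits how far these counts belong to 1 gene.

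In SSRP1KO cells crush was followed by fewer calls among the subunits, but their share of the counts also went down. The subunits took 0.952% ± 0.0846 of the counts without crush, 0.776% ± 0.0121 at 1dpc and 0.689% ± 0.0346 at 2dpc. The share was 0.734% ± 0.0881 at 3dpc and 0.763% ± 0.0597 at 4dpc (SD, n = 3 each). No crushed SSRP1KO library reached the uncrushed SSRP1KO range of 0.903% to 1.05%, itself above the uncrushed NT range of 0.807% to 0.871%. These are shares of raw counts, without the scaling between libraries (TMM) used in the tests. Scaling factors were 1.069 to 1.115 in uncrushed SSRP1KO, 0.8847 to 0.9462 in uncrushed NT and 0.9432 to 0.9699 in SSRP1KO 1dpc. After scaling, the median member difference of SSRP1KO against NT without crush was -0.04, so the higher share was not a higher scaled level. At 1dpc Cox6a2 was the single member called (1.27%, against 4.04% of all genes), and the median was 0.03. At 2dpc 20 members fell and 2 rose (27.8%, against 11.7%), with a median of -0.42. At 3dpc 10 fell and 2 rose (15.2%, against 14.5%), and at 4dpc 9 fell and 1 rose (12.7%, against 13.1%), both near the background. Falls alone took 25.3% of the members at 2dpc against 4.03% of all genes, 12.7% against 5.75% at 3dpc, and 11.4% against 6.2% at 4dpc. Complex IV had 7 falls at 2dpc, ATP synthase 6, complex I 4, complex III 3 and complex II 0. The members called on each of 2, 3 and 4dpc were Atp5b, Atp5k, Cox6c, Cox7a1 and Cox7b. Cox7b kept all 3 calls in each of 13 alternatives. Atp5k lost its calls in 2, 3 and 5 of them at 2, 3 and 4dpc (adjusted p of up to 0.0688, 0.113 and 0.211) and Cox6c in 3, 0 and 2 (up to 0.205 at 2dpc and 0.083 at 4dpc). Atp5b lost the 2dpc call in 3 (up to 0.466) and the 3dpc call without SSRP1KO 3dpc replicate 2 (0.0621). Of the 22 calls at 2dpc, 20 were lost in at least 1 alternative.

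All 22 members that fell on some day in SSRP1KO were among the 44 that fell on some day in NT, 100% of the first list and 50% of the second. At 2dpc 18 were shared, 46.2% of the NT falls and 90.0% of the SSRP1KO falls. These counts do not show that the responses differ. The F-test of all 4 crush responses together called 0 of 79 members by edgeR (0.728% of all genes), with 5 at an unadjusted p under 0.05. The 5 were Ndufc1, Cox8a (adjusted p = 0.124), Cox4i2 (0.139), Ndufa4 (0.264) and Ndufb8 (0.356). DESeq2 called 3 of them, Ndufc1, Cox4i2 and Cox8a, and edgeR without the 3 libraries that stand apart called 4 members (Atp5g1, Cox4i2, Ndufc1 and Uqcrq). SSRP1KO calls themselves moved with single libraries: without SSRP1KO no crush replicate 2 they went from 22 to 14 at 2dpc, from 12 to 6 at 3dpc and from 10 to 5 at 4dpc. Without SSRP1KO 3dpc replicate 2, 6 were called at 3dpc. That library had the highest summed rod and cone markers, 3990.1 CPM, in a comparison in which 8 of these 12 markers rose. Their sum was 603 to 3990.1 CPM at SSRP1KO 3dpc against 408 to 745 CPM without crush, and their part was not tested. Without SSRP1KO 4dpc replicate 1 or 2, 5 and 6 were called at 4dpc. Without the 3 libraries that stand apart the counts were 37, 26 and 23. With the sex score, 7 were called at 2dpc. No share of all genes is given for counts at an unadjusted p or under the alternatives. Such counts therefore cannot be read as particular to the subunits.

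Set against NT at the same time, the SSRP1KO libraries gave member calls by edgeR at 4dpc alone, at a share near the background. The median difference over the members was furthest from 0 at 1dpc. Without crush 0 members were called by edgeR (3.91% of all genes) and by DESeq2, with 3 at an unadjusted p under 0.05. At 1dpc 0 were called by both (0.018% of all genes), with 11 at an unadjusted p under 0.05, a median of 0.24 and 66 of 79 estimates above 0. At 2dpc edgeR called 0 (0.0842%), with 15 at an unadjusted p under 0.05 and a median of 0.14, and DESeq2 called 4: Cox7a2, Cox8a, Ndufc1 and Ndufs1. At 3dpc edgeR called 0 (1.11%), with 3 at an unadjusted p under 0.05, and DESeq2 called Cox6b2. At 4dpc 4 members were higher and 1 lower (6.33%, against 6.91% of all genes, and for the higher ones alone 5.06% against 2.74%), with a median of 0.0. DESeq2 called 8, these 5 with Ndufs1, Ndufs3 and Uqcrb. The counts at an unadjusted p and those by DESeq2 have no share of all genes beside them, so they do not single out the subunits.

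The 4 higher at 4dpc were Cox4i2, Cox6b2, Cox8a and Ndufb8. Cox4i2 was 2.19, 2.37 and 3.15 CPM in SSRP1KO against 0.0, 0.278 and 0.222 CPM in NT (3.67 ± 0.72, adjusted p = 0.00244), and Cox6b2 was 10.1, 4.93 and 8.67 CPM against 2.14, 0.902 and 1.29 CPM (2.51 ± 0.51, 0.0033). The groups did not overlap, and both calls held in all 12 alternatives. Cox8a was 97.1, 103 and 108 CPM against 62.3, 78.7 and 78.1 CPM (0.49 ± 0.13, adjusted p = 0.0232), a call lost in 5 of 12, including without NT 4dpc replicate 1 (0.105). Ndufb8 was 71.9, 73.7 and 89.7 CPM against 52.3, 57.0 and 58.2 CPM (0.49 ± 0.14, adjusted p = 0.0344, lost in 8 of 12). Ndufs4, an accessory subunit of the NADH-oxidising arm, was the lower one, with 51.2, 49.6 and 61.1 CPM against 102, 75.2 and 72.7 CPM (-0.62 ± 0.17, adjusted p = 0.0261). Without NT 4dpc replicate 1 it was -0.42 (adjusted p = 0.232), and without SSRP1KO 4dpc replicate 1 or 2 the adjusted p was 0.107 and 0.119. Leaving out NT 4dpc replicate 1 or SSRP1KO 4dpc replicate 1 or 2 took the members called at any time from 5 to 2, without SSRP1KO 4dpc replicate 3 it was 3, and without SSRP1KO 2dpc replicate 3 it was 10.

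Averaged over the 5 times, 14 members were higher and 1 lower in SSRP1KO (19.0%, against 19.8% of all genes). The higher ones alone were 17.7% of the members against 9.64% of all genes. The median was 0.05. The largest were the 3 isoform genes: Cox6b2 at 1.30 ± 0.22 (adjusted p = 0.000127), Cox4i2 at 1.15 ± 0.28 (0.00403) and Cox7a1 at 1.02 ± 0.24 (0.00363), each above 0 at 5 of 5 times and past the threshold in all 36 alternatives. The Cox4i2 difference was not even over time: 0.24 ± 0.58 without crush, 0.34 ± 0.58 at 1dpc and 0.12 ± 0.6 at 2dpc. It was 1.38 ± 0.61 at 3dpc and 3.67 ± 0.72 at 4dpc, where NT was at most 0.278 CPM. No alternative left out a whole time. The others higher were between 0.20 and 0.35, with the core complex I gene Ndufs3 at 0.35 ± 0.09 (0.00603; 30.8% of its 69-base stretches shared, mainly with Gm12251) and the X-linked accessory gene Ndufb11 at 0.31 ± 0.07 (0.00294). Cox8a, Cox7a2, Ndufb8, Uqcrh, Ndufa6, Ndufs1, Ndufc1, Ndufa1 and Atp5o were the rest, and Ndufs4 was lower at -0.24 ± 0.08 (0.0262). The Ndufs4 call was lost without the 3 libraries that stand apart (-0.16, adjusted p = 0.0582). It was also lost without NT 4dpc replicate 1 (0.0611) or NT 1dpc replicate 1 (0.0517). Cox7a2 lost its call with the replicate block (0.0544). Both X-linked genes held their calls with the sex score in the model (adjusted p = 0.00335 for Ndufb11 and 0.0358 for Ndufa1), and Ndufb11 in all 36 alternatives. Ndufa1 lost its call in 11, among them the replicate block (adjusted p = 0.133), leaving out the 3 libraries that stand apart (0.0644) and leaving out any 1 of 9 single libraries (0.0517 to 0.0741). Atp5o lost its call in 23 (up to 0.118). Cox6a2 was -0.25 ± 0.22 (0.447).

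Vascular markers moved in the same comparison. Of 10 tested mural markers, 5 were higher in SSRP1KO on average (median 1.49), and of 7 endothelial markers 2 were (median 1.41). The summed mural level ran from 6.55 to 19.4 CPM over the NT libraries and from 9.09 to 93.9 CPM over the SSRP1KO ones, and 7 of 11 mural genes were at 0 in some library, with Cspg4 at 0 in 21 of 30. The summed endothelial level ran from 1.77 to 56.3 CPM over all libraries, with Cldn5 at 0 in 24 and Cdh5 at 0 in 21. At 4dpc, where Cox4i2 and Cox6b2 were called, no mural marker was, and the sums were 11 to 21.3 CPM in SSRP1KO against 11.1 to 19.4 CPM in NT. Of the ganglion cell markers 7 of 12 were lower in SSRP1KO on average. The part of these markers in the averaged differences was not tested.

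**Figure D5:**
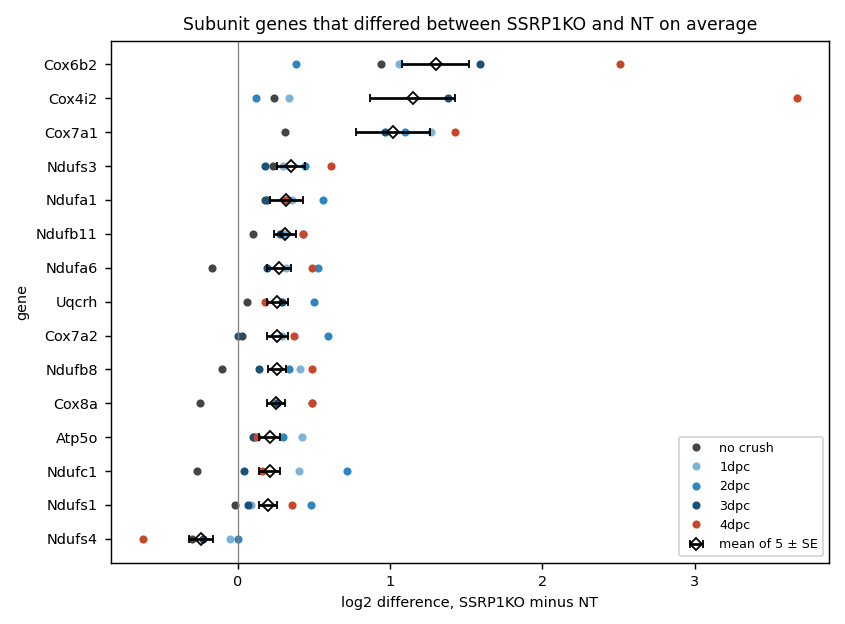
Log2 difference between SSRP1KO and NT for the members called on average, at each of the 5 times (small points) and averaged over them (open diamonds, with SE). The 3 tissue isoforms Cox6b2, Cox4i2 and Cox7a1 sit between 1.02 and 1.30, Ndufs4 at -0.24, and the others between 0.20 and 0.35.

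Genes around the subunits moved partly with them in NT. For these lists, the background of all genes tested was 9.35%, 12.2% and 13.2% lower and 9.47%, 11.9% and 14% higher at 2, 3 and 4dpc. Of 16 complex I assembly factors, 2 fell at 2dpc, and of 22 complex IV assembly factors 1 rose and 1 fell. Of 5 assembly factors each for complex III and complex V (the latter with its inhibitor), 2 fell at 2dpc, with medians of -0.75 and -0.20. Of 7 genes for cytochrome c and the nucleotide carriers, 4 fell at 2dpc and 4 at 4dpc, with Slc25a5, an ADP/ATP carrier of the inner membrane, at -1.13 ± 0.14 (adjusted p = 1.06e-06) at 2dpc. Of 13 tricarboxylic acid cycle genes 2 fell at 2dpc. Mitochondrial ribosomal proteins were mostly not called, with 7 of 74 down and 2 up at 2dpc. The listed cytosolic ribosomal proteins went the other way, with 20, 15 and 35 of 70 up at 2, 3 and 4dpc and none down. That list left out symbols ending in l, or in l and a single digit. Rpl3 to Rpl9 were thus not in it, and their direction was not looked at.

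Glycolysis genes, the other route to ATP, also fell: 7 of 17 at 2dpc, 8 at 3dpc and 12 at 4dpc, with none up and medians of -0.49, -0.62 and -0.85. Aldoc, a brain-type aldolase, was at -2.97 ± 0.26 (adjusted p = 7.92e-10) and Ldhb, a lactate dehydrogenase subunit, at -1.40 ± 0.13 (2.67e-09) at 4dpc. The glycolysis medians moved further from 0 over these days, whereas that of the subunits moved back from -0.55 to -0.25. How far it moved back depends on NT 4dpc replicate 1, which stands apart. Its single-library median was -0.04, against -0.42 and -0.46 in the other NT 4dpc libraries and -0.40, -0.38 and -0.21 at 3dpc. Of 15 regulators of mitochondrial biogenesis, 4 rose and 1 fell at 2dpc. Gabpa, the DNA-binding subunit of the ETS factor GABP, rose by 0.80 ± 0.12 (log2, adjusted p = 1.87e-05), and the nuclear receptor Esrra fell by 1.55 ± 0.34 (log2, 0.00134). At 4dpc Yy1 rose by 0.56 ± 0.18 (log2, 0.0231).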

How the data were processed

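Counts per gene in 30 libraries of sorted mouse retinal ganglion cells were taken as deposited by the authors: whole-number counts, not normalized. Per the submitters' processing notes the build was GRCm38 (mm10) and the tools were bcl2fastq 2.17, STAR and HTSeq, with no roles given. Annotation, strand setting and the handling of multimapping reads: not given in the sources used here. Per the labels' protocols, total RNA was amplified with SMART-Seq v4 and read as 69-base pairs. Of 24060 rows, 27 with symbols turned into dates were left out (at most 0.275% of a library's counts). A second deposited table, of repeat intervals, was not used.

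Genes were tested with edgeR 4.0.16 (R 4.3.3): TMM scaling, filterByExpr on the 10 groups (16621 genes kept), 1 coefficient for each group (20 residual degrees of freedom over the 30 libraries), two-sided quasi-likelihood tests, and Benjamini-Hochberg adjustment over all genes tested. Crush days were set against no crush separately for NT and SSRP1KO, and SSRP1KO against NT at each time and averaged over times. The 4 differences in crush response were tested with 1 F-test. Log2 fold changes are ± SE, and CPM values use TMM-scaled library sizes. DESeq2 1.42.0 was an alternative, with those listed in the closing section, and the fitting step was tested on simulated data. No 2 libraries of a group agreed within sampling noise: chi-square per degree of freedom was at least 11.5.

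The members, the gene lists and the naming rule were chosen with earlier results of these data known. The rule named the isoform pairs, the 5 largest rises and 5 largest falls past the threshold with a mean of at least 5 CPM in the higher group, and the members highest and lowest per kb in each complex. Members described outside it (among them Ndufv1, Ndufb11 and Atp5j) were chosen after their values were seen. The values of 1 member are not reported here. Exon lengths, positions and overlaps came from GENCODE M21, levels per kb and length relations used its best-ranked coding transcript of each gene, and shared 69-base stretches were counted between its transcripts. Python 3.11.15, pandas 2.3.3, numpy 2.4.6 and matplotlib 3.10.9 were used for tables and figures.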

Additional observations from a re-analysis of the deposited data

How the results depend on the processing

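No named gene past the threshold reversed its direction under the alternatives run. Counts and medians were compared by size only, so a change of sign in a median near 0 was not looked for. For single genes and medians, 94 gene values fell to the other side of the threshold, 13 medians moved and 916 values stayed the same. For genes this means the same direction and side, and for medians a change within the SD between libraries. The main counts of members called were 2, 40, 26 and 27 at 1, 2, 3 and 4dpc in NT, 1, 22, 12 and 10 in SSRP1KO, 5 for SSRP1KO against NT at any time, 15 averaged over times and 0 for the difference between crush responses. Without the 3 libraries that stand apart, chosen after seeing the data, they were 6, 61 and 43 at 1, 2 and 4dpc in NT, 9, 37, 26 and 23 in SSRP1KO, 23 averaged over times and 4 for the difference. With a sex score as a covariate they were 1 at 1dpc and 16 at 4dpc in NT, and 0 at 1dpc and 7 at 2dpc in SSRP1KO. With the 6 libraries of the compared groups alone they were 10 at 1dpc and 41 at 3dpc in NT, and 0, 2 and 6 at 1, 2 and 3dpc in SSRP1KO. With DESeq2 they were 5 at SSRP1KO 1dpc, 10 at any time and 3 for the difference, and with DESeq2 size factors in edgeR 2 at SSRP1KO 1dpc. With the replicate number as a block they were 3 at SSRP1KO 1dpc and 8 at SSRP1KO 2dpc, and 45 at NT 2dpc; the numbers did not pair the samples, with a median correlation of deviations of -0.00827 between same-numbered libraries. Leaving out 1 library at a time gave 1 to 2, 32 to 47, 14 to 22 and 19 to 36 in NT, 0 to 2, 14 to 24, 6 to 14 and 5 to 10 in SSRP1KO, 2 to 10 at any time, 13 to 17 averaged and 0 to 1 for the difference. Testing without a filter on low counts kept each count within 1.5 times. Except where a setting uses fewer libraries, the cause was not tested. The share of all genes called under each alternative is not given, so these counts do not show a stronger or weaker response of the subunits. Depth limits the low genes: Cox4i2 and Cox7a1 were at or under 1.08 CPM in the NT 4dpc libraries, and Ndufa4l2 and Ndufs5 at or under 1.03 CPM in all.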
